A study of Arabidopsis thaliana with 27 samples.

Results

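The genes described here are 10 regulators of endosperm development, chosen by locus from the 33602 genes counted in each library: RGE1 (also called ZHOUPI, AT1G49770), ICE1 (AT3G26744), ALE1 (AT1G62340), IKU2 (AT3G19700), MINI3 (WRKY10, AT1G55600), FIS2 (AT2G35670), MEA (AT1G02580), FWA (AT4G25530), AGL62 (AT5G60440) and PHE1 (AGL37, AT1G65330). All 10 loci were found in all 27 files. The loci were not ranked or filtered by a measured value, though earlier results of these data were known when they were chosen. Of the 10 genes, 6 were above detection in at least 1 group of libraries, where detection means at least 10 reads in each of a group's 3 libraries. These were ICE1 in all 9 groups, RGE1 and ALE1 in 7 groups each, FIS2 and PHE1 in 2 groups each and FWA in 1 group. IKU2, MINI3, MEA and AGL62 were above detection in none.

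The libraries were made from mRNA of developing Arabidopsis thaliana seeds of 3 lines at 7-8, 9-10 and 11-12 days after flowering, with 3 biological replicates named A, B and C in each of the 9 groups. The line fae1 is a mutant of the seed fatty acid elongase, and the other lines carry that mutation too, so there was no wild type. CL37 is fae1 with the castor fatty acid hydroxylase RcFAH12 expressed in seeds, and PDAT is CL37 with the castor acyltransferase RcPDAT1a, also expressed in seeds. Plants grew in constant light, and each line's siliques came from about 50 plants, with seeds taken out of the frozen siliques, so each library is a pool of whole seeds in which endosperm, embryo and seed coat were not separated. The promoters of the transgenes are not given in the sources used here.

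The endosperm of Arabidopsis first grows as a syncytium, then forms cell walls, and is later broken down as the embryo fills the seed. AGL62, a type I MADS box factor, holds back cell wall formation, and the HAIKU genes IKU2 and MINI3 promote the growth of the syncytium and so seed size. MEA and FIS2 belong to a seed form of Polycomb repressive complex 2, which represses among others PHE1, and several of these genes are imprinted, with FWA, MEA and FIS2 expressed from the maternal and PHE1 from the paternal allele. RGE1 and ICE1 are basic helix-loop-helix factors that act as a heterodimer in the endosperm, where they are needed for its breakdown and for the protease gene ALE1, whose product takes part in forming the embryo's cuticle.

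Levels are given as CPM, reads per 1000000 gene reads of a library after scaling with edgeR's TMM factors, and as mean ± SD over the 3 libraries of a group. Gene reads per library ran from 4126510 to 22403287, so that 3 reads, taken as the limit that a count of 0 allows, correspond to between 0.151 and 0.773 CPM in a single library. These limits, and the 95% intervals given for ratios of reads, cover counting error only. Differences are log2 fold changes ± SE from edgeR's quasi-likelihood test over all 27 libraries, and a gene is called at a Benjamini-Hochberg adjusted p below 0.05 over the 18897 genes tested. FIS2, FWA and PHE1 passed the expression filter only through groups in which they were high, so that a difference with age was built into their being tested, and their calls are descriptions.

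Some libraries stood apart from their group. A developmental score, the mean log2 CPM of the 500 genes that rose minus that of the 500 that fell with the smallest p between 7-8 and 11-12 days in PDAT, leaving out the genes described here, was -0.61 in library A of fae1 at 7-8 days against -2.90 in B and -2.55 in C. At 9-10 days it was -1.53 in fae1 A, below -1.25 in B and -0.36 in C, so that the A libraries of these stages stand in the reverse of their labelled order. Library B of PDAT at 11-12 days scored 2.23 against 3.31 in A and 2.83 in C, and 15.3% of its alignments were not unique against 6.43% and 6.46%. In the other groups at 11-12 days the score was 1.53 to 2.07 in fae1 and 3.11 to 3.61 in CL37. The score was built on PDAT, so that the PDAT stages were apart by choice. Libraries are used under their labels throughout. Where stated, tests of the genes described here are also given without those standing apart. Pooled ratios of reads, markers and related genes are given only with all libraries, so that their fae1 values at 7-8 and 9-10 days include A.

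**Figure D1:**
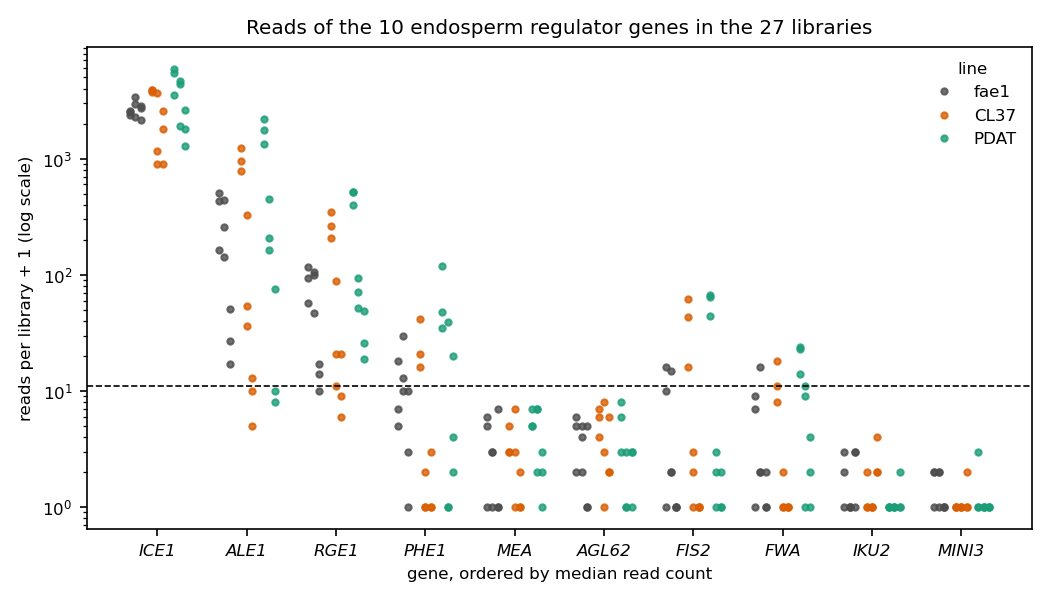
Reads of each gene in each of the 27 libraries, plus 1, on a log axis, with genes ordered by their median count, colours for the 3 lines, and stages running from early to late within each line. The dashed line marks 10 reads: ICE1 lies above it in all 27 libraries, with 889 to 5907 reads, while IKU2, MINI3, MEA and AGL62 stay below it in all 27.

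RGE1, the endosperm partner of the heterodimer, was high at 7-8 days and low at 11-12 days in all 3 lines. In fae1 its level in libraries A, B and C was 5.77, 12.0 and 9.56 CPM at 7-8 days, 6.92, 9.25 and 4.76 at 9-10 days, and 1.48, 1.04 and 0.676 at 11-12 days. In CL37 it was 25.3, 19.9 and 17.8 CPM, then 5.70, 2.58 and 4.18, and then 0.751, 0.549 and 1.60. In PDAT it was 27.7, 26.9 and 34.7 CPM, then 4.80, 6.34 and 3.53, and then 1.93, 4.39 and 1.54. In CL37 the 3 stages did not overlap, in PDAT the first stage lay apart from the later ones, and in fae1 the first and second stages overlapped. The lowest group, CL37 at 11-12 days with 0.968 ± 0.560 CPM, and the next, fae1 at 11-12 days with 1.07 ± 0.401, did not differ beyond their spread.

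From 7-8 to 11-12 days RGE1 changed by -3.11 ± 0.42 on the log2 scale in fae1 (edgeR adjusted p = 1.1e-05), -4.41 ± 0.43 in CL37 (2.89e-08) and -3.52 ± 0.37 in PDAT (2.34e-07), and all 3 calls held whichever library was left out. In fae1 the change was -3.35 ± 0.42 when A of 7-8 and A of 9-10 days were both left out. In PDAT it was -4.11 without library B of 11-12 days. The differences between lines in this change were not called: it was -1.30 ± 0.63 in CL37 against fae1 (adjusted p = 0.232) and 0.88 ± 0.57 in PDAT against CL37 (adjusted p = 0.575), the latter 0.29 (0.872) without library B of PDAT at 11-12 days.

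ALE1, a subtilisin-like protease gene that needs the RGE1 and ICE1 pair for its expression, had the same order of the 9 group means as RGE1, from PDAT at 7-8 days with 108 ± 12.0 CPM down to CL37 at 11-12 days with 0.727 ± 0.204. In fae1 it stood at 16.6, 52.5 and 44.3 CPM in A, B and C at 7-8 days, 29.1, 24.1 and 14.6 at 9-10 days, and 4.62, 2.09 and 1.202 at 11-12 days. In CL37 the values were 68.9, 94.3 and 67.6 CPM, then 21.6, 9.02 and 11.1, and then 0.601, 0.617 and 0.962. In PDAT they were 94.1, 114 and 116 CPM, then 23.2, 20.2 and 10.4, and then 0.750, 6.87 and 0.555. The stages did not overlap in CL37 or PDAT, while in fae1 library A at 7-8 days lay below A and B of 9-10 days. Library B of PDAT at 11-12 days held 75 ALE1 reads, against 7 in A and 9 in C.

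From 7-8 to 11-12 days ALE1 changed by -3.87 ± 0.63 on the log2 scale in fae1 (edgeR adjusted p = 7.8e-05), -6.68 ± 0.76 in CL37 (3.03e-07) and -5.35 ± 0.65 in PDAT (1.34e-06). Without library B of PDAT at 11-12 days the change in PDAT was -7.39, and with both early fae1 A libraries left out that in fae1 was -4.23 ± 0.60. The change was -2.81 ± 1.01 in CL37 against fae1, which edgeR did not call (adjusted p = 0.102) and DESeq2 did (adjusted p = 0.0414). In PDAT against fae1 it was -1.48 ± 0.88 (adjusted p = 0.285), but -3.53 (adjusted p = 0.0116) without library B of PDAT at 11-12 days.

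The start regions of both genes are shown because RGE1 and ICE1 are of the class of factors that binds E-boxes, with the letters CANNTG. They are the 250 bases before each gene's annotated start in the RefSeq annotation of assembly TAIR10.1, for RGE1 chr1:18424328-18424577 on the plus strand and for ALE1 chr1:23055673-23055922 on the minus strand, written from 5′ to 3′ with any E-box in capitals.
RGE1: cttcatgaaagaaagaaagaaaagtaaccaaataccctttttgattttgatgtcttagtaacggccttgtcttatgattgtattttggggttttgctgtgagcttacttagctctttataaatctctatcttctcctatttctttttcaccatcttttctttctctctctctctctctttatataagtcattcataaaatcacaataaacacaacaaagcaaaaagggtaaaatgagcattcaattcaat
ALE1: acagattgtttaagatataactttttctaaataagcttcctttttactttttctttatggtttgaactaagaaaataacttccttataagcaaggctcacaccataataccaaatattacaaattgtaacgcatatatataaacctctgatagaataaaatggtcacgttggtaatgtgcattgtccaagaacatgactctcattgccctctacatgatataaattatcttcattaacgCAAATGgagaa
The motif, which reads the same class of letters on both strands, was found once in the ALE1 window, with its first base 11 bases before the gene start, and not in the RGE1 window. Of the 10 genes, 5 held it in this window (ALE1, MINI3, FIS2, FWA and PHE1), while 55.3% of 27443 windows of the same length before annotated genes did. A match is a run of letters and not a site.

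**Figure D2:**
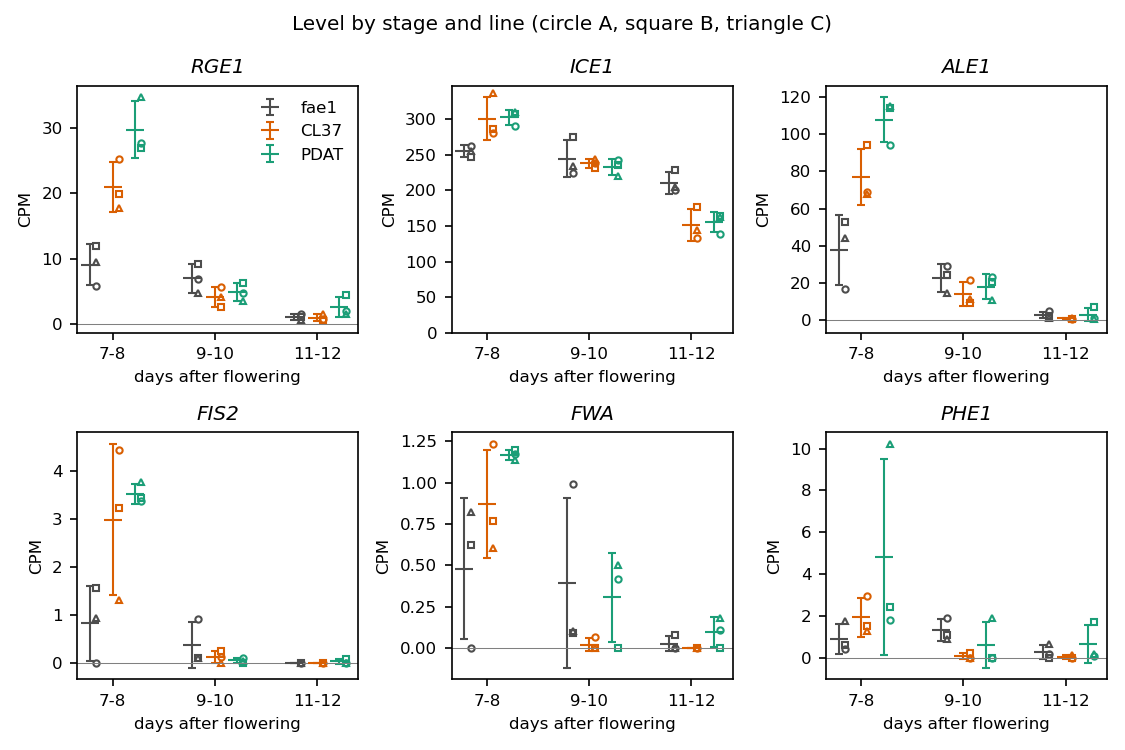
Level in CPM by days after flowering for the 6 genes tested, on linear axes with a separate scale for each gene, with horizontal marks and bars for the group mean ± SD and symbols for the single libraries A, B and C. RGE1 and ALE1 are highest in PDAT at 7-8 days, at 29.8 and 108 CPM, and reach at most 4.39 and 6.87 CPM in the libraries of 11-12 days.

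The ratio of ALE1 to RGE1 within a library does not depend on how libraries are scaled, and was picked for description after the levels had been seen. Its p-values come from the same levels that led to the choice, so they are descriptions and no independent support. Counted as reads per kilobase of exon, ALE1 stood at 1.22 to 2.12 times RGE1 in the 9 libraries of 7-8 days and at 0.161 to 1.40 times in the 9 of 11-12 days. The mean change was -1.85 on the log2 scale (2-sided exact permutation test, p = 0.000123, adjusted over 5 such tests 0.000615). Stages were exchanged there over the 3 lines together, without regard to line. It lay between -1.66 and -2.05 when any of the 18 libraries was left out, with exact p of 8.23e-05 to 0.000247. Within single lines the change was -0.80 in fae1 (exact p = 0.2), -2.17 in CL37 and -2.59 in PDAT (exact p = 0.1 in each, the smallest that 3 against 3 libraries allow). In fae1 the ranges overlapped, at 1.28 to 2.07 and 0.794 to 1.40, and in CL37 and PDAT they did not. Counts of ALE1 at 11-12 days were small in those lines, at 4 to 12 reads in 5 of the 6 libraries and 75 in library B of PDAT, where the ratio was 0.698 (95% exact interval 0.480 to 1.03).

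**Figure D3:**
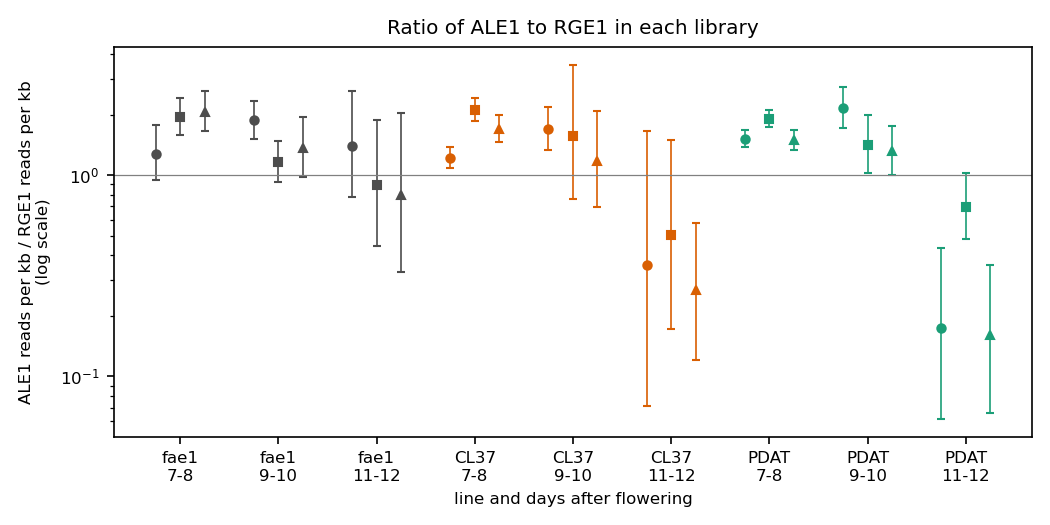
Ratio of ALE1 to RGE1 reads per kilobase of exon in each library on a log axis, with 95% exact intervals from the read counts, for line and days after flowering, circles A, squares B and triangles C. The 9 libraries of 7-8 days lie at 1.22 to 2.12, and the 6 of CL37 and PDAT at 11-12 days at 0.161 to 0.698.

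ICE1, which also acts in cold responses and stomatal development outside the seed, had the highest level per kilobase of exon of the 10 genes and was detected at all stages. In fae1 its level in A, B and C was 263, 246 and 256 CPM at 7-8 days, 224, 275 and 235 at 9-10 days, and 200.0, 229 and 204 at 11-12 days. In CL37 it was 281, 286 and 337 CPM, then 239, 232 and 244, and then 134, 177 and 144. In PDAT it was 291, 307 and 310 CPM, then 242, 236 and 221, and then 139, 165 and 163. All 3 stages were apart from each other in CL37 and PDAT, and in fae1 the stage of 9-10 days overlapped both others while 11-12 days lay below 7-8 days. Per kilobase of exon, the ICE1 level of 120 ± 4.20 CPM in PDAT at 7-8 days compared with 41.0 ± 4.56 for ALE1 and 25.3 ± 3.65 for RGE1 in the same libraries.

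ICE1 fell by 0.99 ± 0.12 on the log2 scale from 7-8 to 11-12 days in CL37 (edgeR adjusted p = 5.37e-07) and by 0.96 ± 0.12 in PDAT (1.34e-06). In fae1 the difference was -0.27 ± 0.12 and was not called (adjusted p = 0.0616). That outcome stood near the threshold and changed with the scaling, the model and the libraries kept. The difference was -0.29 (edgeR adjusted p = 0.0461) with RLE factors and -0.36 (0.0155) with upper-quartile factors. It was -0.29 (0.0143) in DESeq2, and in edgeR -0.28 (0.0482) with a replicate block and -0.34 (0.0491) without library B of fae1 at 11-12 days. With both early fae1 A libraries left out it was -0.25 ± 0.13 (0.0984). The test of the difference between lines called ICE1 in CL37 against fae1, at -0.72 ± 0.17 (adjusted p = 0.011), and in PDAT against fae1, at -0.69 ± 0.17 (adjusted p = 0.021), and not in PDAT against CL37, at 0.03 ± 0.17 (adjusted p = 0.976). Both comparisons share the fae1 libraries. The first call held in all 12 fits with 1 library left out, and the second was lost without library A of PDAT at 11-12 days (-0.61, adjusted p = 0.0676). With only the groups of the comparison fitted both calls were lost (adjusted p = 0.102 and 0.0925).

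**Figure D4:**
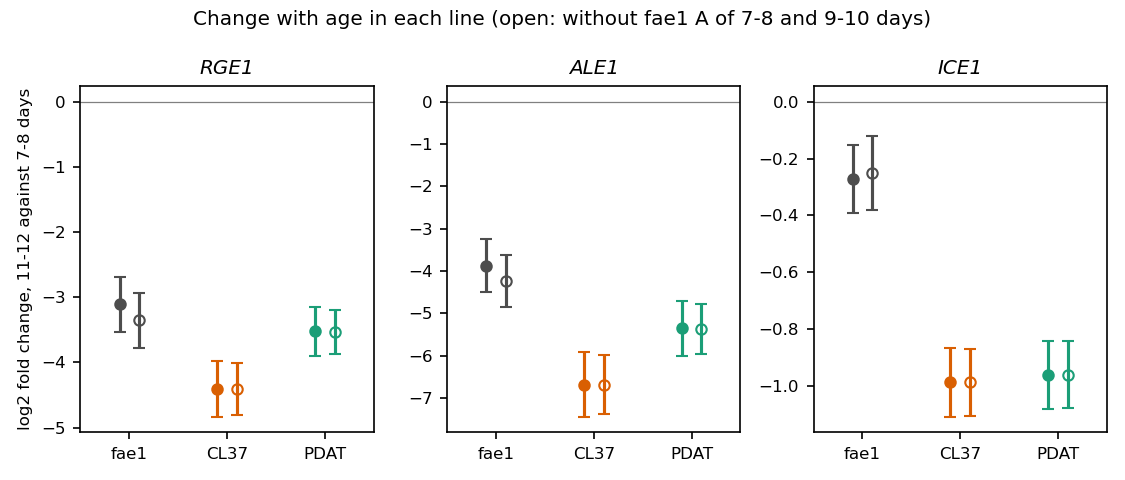
Log2 fold change from 7-8 to 11-12 days in each line for RGE1, ALE1 and ICE1, each with its own scale, with bars of 1 SE; filled points use all libraries and open points leave out A of fae1 at 7-8 and at 9-10 days. ICE1 is at -0.27 in fae1 against -0.99 in CL37 and -0.96 in PDAT.

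The other 3 genes above detection were low, and are given as reads. FIS2, the zinc finger subunit of the seed Polycomb complex, had 0, 15 and 9 reads in A, B and C of fae1 at 7-8 days, 14, 1 and 1 at 9-10 days and none at 11-12 days. In CL37 the counts were 61, 42 and 15, then 2, 1 and 0, and then none, and in PDAT they were 63, 66 and 43, then 2, 0 and 1, and then 0, 1 and 0. In CL37 and PDAT all reads but a few were at 7-8 days, and in fae1 the A libraries carried them the other way round. Against 7-8 days, the pooled level at 11-12 days was at least 10.1-fold lower in fae1 and at least 34.6-fold lower in CL37, with 3 reads over the group as the limit, and 0.788% of it in PDAT (95% exact interval 0.0198% to 4.45%).

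FWA, a homeodomain factor silenced by DNA methylation outside the endosperm, had 0, 6 and 8 reads in fae1 at 7-8 days, 15, 1 and 1 at 9-10 days and 0, 1 and 0 at 11-12 days. In CL37 it had 17, 10 and 7 reads, then 1, 0 and 0, and then none. In PDAT it had 22, 23 and 13 reads, then 8, 0 and 10, and then 1, 0 and 3. As for FIS2, library A of fae1 was at 0 at 7-8 days and the highest of its group at 9-10 days. The level at 11-12 days was at least 9.96-fold lower than at 7-8 days in CL37, with 3 reads over the group as the limit, 5.68% of it in fae1 (95% exact interval 0.134% to 37.4%) and 9.34% in PDAT (2.46% to 25.2%).

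PHE1, the paternally expressed MADS box gene, had 4, 6 and 17 reads in fae1 at 7-8 days, 29, 12 and 9 at 9-10 days and 2, 0 and 9 at 11-12 days. In CL37 it had 41, 20 and 15 reads, then 0, 1 and 0, and then 0, 0 and 2. In PDAT it had 34, 47 and 117 reads, then 0, 0 and 38, and then 1, 19 and 3. Single libraries of PDAT carried much of its signal: C held 117 of 198 reads at 7-8 days and all 38 at 9-10 days, and B held 19 of 23 at 11-12 days. The pooled level at 11-12 days was 32.4% of that at 7-8 days in fae1 (95% exact interval 14.5% to 67.5%), 2.99% in CL37 (0.356% to 11.2%) and 15.7% in PDAT (9.75% to 24.3%).

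PHE1 has a close copy, PHE2 (AT1G65300), whose group means were 1.06 CPM in CL37 and 2.74 CPM in PDAT at 7-8 days and 0.0768 and 0.371 CPM at 11-12 days. Their coding regions of 840 and 837 bases in the RefSeq annotation of TAIR10.1 are 85.9% identical over 852 aligned columns. The longest run they share, 120 bases, is printed because reads inside it cannot be assigned to either gene, so that the counts of both are uncertain. It lies at chr1:24266495-24266614 on the minus strand in PHE1 and at chr1:24255632-24255751 on the plus strand in PHE2.
PHE1 and PHE2: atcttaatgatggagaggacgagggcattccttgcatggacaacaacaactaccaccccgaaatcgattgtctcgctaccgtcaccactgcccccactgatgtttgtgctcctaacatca

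The 4 genes not detected were nearly without reads. IKU2, a receptor kinase gene, had 14 reads over all 27 libraries and none in 18 of them. MINI3, a WRKY factor gene, had 7 reads and none in 21 libraries. In PDAT at 9-10 days, where both were at 0, the 3 libraries together allow up to 0.0638 CPM. MEA, the catalytic subunit of the seed Polycomb complex, had 66 reads with at most 6 in a library, and AGL62 had 72 reads with at most 7. Their group means were between 0.0229 and 0.310 CPM for MEA and between 0.0348 and 0.360 CPM for AGL62. At this depth no order of stages or lines could be read from them, and they were not tested.

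The authors' deposited table of FPKM, fragments per kilobase scaled to sequencing depth, with 1 pooled value per group and no spread, has PDAT at 7-8 days as the highest group for RGE1 and ALE1. In the authors' deposited table RGE1 was at 9.32, 22.0 and 30.4 FPKM at 7-8 days in fae1, CL37 and PDAT and ALE1 at 15.1, 31.2 and 43.2. In the same deposited table ICE1 was at 150, 171 and 167 FPKM at 7-8 days and at 103, 90.6 and 83.9 at 11-12 days, and IKU2 and MINI3 were at or below 0.05 FPKM in all 9 groups.

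Over the 6 genes tested, edgeR called 4 lower at 11-12 than at 7-8 days in fae1 (RGE1, ALE1, FIS2 and FWA), where 26.5% of all tested genes were lower. In CL37 it called all 6 lower, beside 28.6% of tested genes, and in PDAT all 6, beside 26.7%. FIS2, FWA and PHE1 were tested only through groups in which they were high, so their calls are descriptions and no support beside these shares. Of RGE1, ALE1 and ICE1, all were lower in CL37 and in PDAT, and RGE1 and ALE1 in fae1. Not all these calls were stable: FWA in fae1 was lost without library B (adjusted p = 0.0811) or C (0.126) of 7-8 days or A (0.0775) or C (0.0863) of 11-12 days. PHE1 was lost in CL37 without library B of 11-12 days (adjusted p = 0.0552), and in PDAT without C of 7-8 days (0.195) or A (0.0883) or C (0.103) of 11-12 days. With each library's non-unique percent as a covariate FWA was lost in fae1 (0.142) and at -2.12 in PDAT (0.211), and PHE1 was lost in CL37 (0.222) and at -1.23 in PDAT (0.437). With only the groups of the comparison fitted, FIS2 (0.0864) and FWA (0.0992) were lost in fae1. In bulk seed RNA, fewer cells of a type and less RNA per cell cannot be told apart.

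The steps between neighbouring stages were tested within each line, and their differences between lines were not tested. As above, calls of FIS2, FWA and PHE1 in the counts of these steps are descriptions. From 7-8 to 9-10 days edgeR called 0 of the 6 in fae1, where 0.0% of tested genes were called, and 0 had an unadjusted p below 0.05, with 0 called in DESeq2 too. With both early fae1 A libraries left out, RGE1 was at -0.61 ± 0.39 (edgeR adjusted p = 0.242) and ALE1 at -1.32 ± 0.58 (0.0928), while FIS2 at -3.53 ± 0.88 (edgeR adjusted p = 0.00552) and FWA at -2.76 ± 0.97 (0.0368) were called in that step. The share of all tested genes called in that fit is not given here, and the 0.0% of the main fit does not stand for it. In CL37 all 6 were lower, beside 12.6% of tested genes, and in PDAT 5 were, beside 16.3%, with FWA not called (adjusted p = 0.0871). FWA in PDAT was called at -1.66 ± 0.51 (edgeR adjusted p = 0.0131) with both early fae1 A libraries left out, and with only the groups of the comparison fitted (0.0239), where PHE1 was lost (0.213). RGE1 changed by -2.23 ± 0.37 in CL37 (edgeR adjusted p = 0.000604) and -2.64 ± 0.35 in PDAT (5.95e-05), and ALE1 by -2.40 ± 0.56 (0.00553) and -2.60 ± 0.55 (0.00166). FWA and PHE1 in CL37 were lost without library A of 7-8 days (0.0796 and 0.115), or A (0.0968 and 0.202), B (0.0656 and 0.0651) or C (0.0724 and 0.106) of 9-10 days, and PHE1 also without B of 7-8 days (0.0632). In PDAT PHE1 was lost without C of 7-8 days (0.267) or A (0.117) or B (0.115) of 9-10 days. DESeq2 did not call PHE1 in PDAT in this step either, at -2.90 (DESeq2 adjusted p = 0.0566). With no filter on low counts PHE1 was lost in PDAT (edgeR adjusted p = 0.0657) and in CL37 (0.0768).

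The percent of non-unique alignments was 16.6% to 19.4% in PDAT at 7-8 days and 6.30% to 10.5% at 9-10 days. With it as a covariate all 5 PDAT calls of this step were lost: RGE1 was at -1.81 (edgeR adjusted p = 0.0511), ALE1 at -1.31 (0.448), ICE1 at -0.44 (0.231), FIS2 had an adjusted p of 0.244 and PHE1 was at -0.52 (0.91). In CL37 it ended the calls of ICE1 (0.0559), FWA (0.0611) and PHE1 (0.0887). The part of that percent in the results was not tested further.

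ICE1 in that step was at -0.34 ± 0.12 in CL37 (edgeR adjusted p = 0.0413), a call lost whichever of the 6 libraries was left out (0.0552 to 0.157), and at -0.38 ± 0.12 in PDAT (0.0192), lost without library C of 7-8 days (0.0537) or of 9-10 days (0.0801). From 9-10 to 11-12 days 4 genes were lower in fae1, beside 19.6% of tested genes, 3 in CL37, beside 15.0%, and 2 in PDAT, beside 11.6%. RGE1 changed by -2.73 ± 0.43 in fae1 (adjusted p = 0.000168) and -2.18 ± 0.47 in CL37 (0.00123), and was at -0.89 ± 0.38 in PDAT (0.0983). Without library B of 11-12 days RGE1 was at -1.48 in PDAT (0.0116), and with the non-unique percent as a covariate at -1.05 (0.0313). ALE1 fell in all 3 lines, with changes of -3.14 ± 0.63, -4.28 ± 0.77 and -2.75 ± 0.63 (0.00113, 0.000281 and 0.00314). In PDAT the ALE1 change of this step was -4.80 without library B of 11-12 days, and its call was lost with only the groups of the comparison fitted (0.0599). FIS2 and FWA, called in fae1, were lost without library A of 9-10 days (0.292 and 0.553) or without A (0.0712 and 0.12), B (0.0648 and 0.051) or C (0.0761 and 0.127) of 11-12 days, and with the non-unique percent as a covariate (0.223 and 0.288).

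Between lines few genes were called. At 7-8 days PDAT against fae1 had 1 gene higher, RGE1, beside 4.77% of tested genes, at 1.71 ± 0.33 on the log2 scale (edgeR adjusted p = 0.00546), and with both early fae1 A libraries left out at 1.46 ± 0.34 (0.00441). The libraries of PDAT at 7-8 days had 16.6% to 19.4% of non-unique alignments against 6.28% to 11.4% in fae1, and with that percent as a covariate the difference was 1.01 (0.212). The part of that percent in the result was not tested further. With only the groups of the comparison fitted the difference was 1.68 (0.146). ALE1 was at 1.52 ± 0.52 (0.07) and FIS2 at 2.08 ± 0.70 (0.0674), and FIS2 was called with both early fae1 A libraries left out (0.0324) or without library B of fae1 at 7-8 days (0.0419).

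At 7-8 days CL37 against fae1 called 0 of the 6 genes in edgeR, beside 0.0265% of tested genes, with 2 at an unadjusted p below 0.05 and 0 called in DESeq2. RGE1 was there at 1.205 ± 0.33 (adjusted p = 0.266), with all 3 CL37 libraries above all 3 of fae1. At 9-10 days 0 were called in CL37 against fae1, beside 0.741%, and in PDAT against fae1, beside 0.09%, with 2 and 1 at an unadjusted p below 0.05 and 0 called in DESeq2 in either, which gave FWA no adjusted p.

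At 11-12 days ICE1 was lower than in fae1 in both other lines, at -0.48 ± 0.12 in CL37 (edgeR adjusted p = 0.00777), where 5.05% of tested genes were lower, and at -0.44 ± 0.12 in PDAT (0.0292), where 1.68% were. The main edgeR fit over 27 libraries called no other of the 6 genes in either. With only the groups of the comparison fitted, ICE1 was lost in CL37 against fae1 (0.062) and in PDAT against fae1 (0.0685), and ALE1 was called in CL37 against fae1 at -1.76 (0.0339). DESeq2 also called RGE1 in PDAT against fae1 (0.049), where edgeR gave 1.29 ± 0.46 (0.0938), and 0.70 (0.356) without library B of PDAT at 11-12 days. The CL37 call was lost without library A of CL37 at 11-12 days (-0.39, adjusted p = 0.066). The PDAT call was lost when A (0.0581), B (0.118) or C (0.062) of fae1 or A (0.16) or C (0.054) of PDAT was left out, with no filter on low counts (0.0697), and with the non-unique percent as a covariate (0.116). PDAT against CL37 called 0 of the 6 in edgeR at 7-8, 9-10 and 11-12 days, beside 0.0106%, 0.0212% and 2.65% of tested genes, with 0, 0 and 2 at an unadjusted p below 0.05 and 0 in DESeq2, which at 7-8 days gave FIS2, FWA and PHE1 no adjusted p. RGE1 was at 0.50 ± 0.31 and ICE1 at 0.01 ± 0.12 in PDAT against CL37 at 7-8 days. For the change with age, 1 gene, ICE1, was called lower in CL37 against fae1, beside 1.05% of tested genes, and in PDAT against fae1, beside 2.91%. In PDAT against CL37 0 were called by edgeR, beside 0.704%, with 0 at an unadjusted p below 0.05 and 0 in DESeq2.

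**Figure D5:**
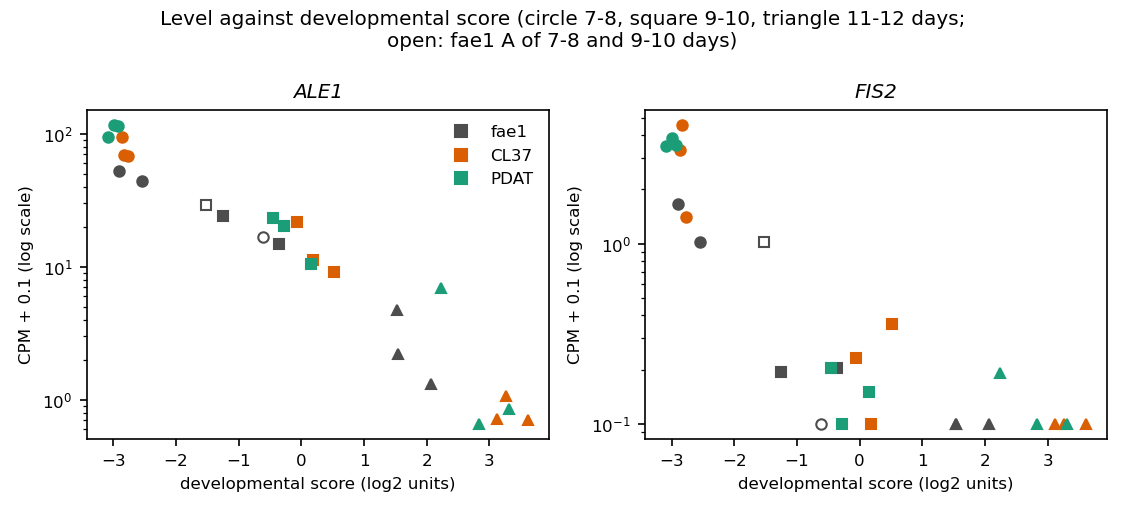
Level of ALE1 and FIS2 in CPM plus 0.1, on a log axis, against the developmental score of each of the 27 libraries, with colours for lines, shapes for stages and open symbols for A of fae1 at 7-8 and at 9-10 days. Library A of fae1 at 7-8 days lies at a score of -0.61 with 0 FIS2 reads and 16.6 CPM of ALE1, and A of 9-10 days at -1.53 with 14 FIS2 reads.

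Markers of other parts of the seed, and of the silique wall, changed at the same time. The summed level of 6 seed coat markers was 355 to 1088 CPM over the libraries of 7-8 days and 139 to 296 over those of 11-12 days, with 1 marker, TT12, at 0 in all 3 groups of 11-12 days. The other 5 of these were lower at 11-12 than at 7-8 days in each line, beside 26.5%, 28.6% and 26.7% of tested genes in fae1, CL37 and PDAT. The sum of 5 embryo markers was 182 to 305 CPM at 7-8 days and 185 to 409 at 11-12 days, and its members went different ways. LEC1 and LEC2 were lower at 11-12 than at 7-8 days in all 3 lines, at -3.41 ± 0.56 and -3.25 ± 0.56 in fae1 (edgeR adjusted p = 7.8e-05 and 0.000104). ABI3 was higher in fae1, at 1.197 ± 0.34 (0.00665), and in CL37, at 1.04 ± 0.34 (0.0122), and not called in PDAT (0.0544). Its level in fae1 at 7-8 days, with library A included, was 119.5 ± 93.2 CPM. FUS3 was higher in fae1, at 0.53 ± 0.19 (0.0232), and not called in CL37 (0.963) or PDAT (0.504). The sum of 5 silique wall markers was 27.1 to 97.2 CPM at 7-8 days and 8.64 to 29.8 at 11-12 days, where IND was at 0 in all 3 lines. SHP2 was the largest part of this sum, at 48.5 CPM in fae1 at 7-8 days, while FUL and IND had 52 and 13 reads in all. Resting mostly on SHP2, the sum cannot show whether silique wall was present in the libraries. Of the 3 tested silique wall markers 3 were lower in fae1 and in CL37 and 2 in PDAT, beside the same shares of tested genes. The seed coat marker TT2 and the silique wall marker ALC reached group means of only 1.97 and 1.87 CPM, in PDAT at 7-8 days. They were tested through groups in which they were high, so their calls are descriptions. The part of all these markers in the results was not tested.

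The related genes fall into 7 lists, described by their counts of genes called between 7-8 and 11-12 days, beside the shares of tested genes called lower given above and 24.0%, 29.5% and 27.2% called higher in fae1, CL37 and PDAT. Of 6 relatives of FIS2 and MEA in Polycomb repressive complexes, 3 were lower and 1 higher from 7-8 to 11-12 days in fae1, and 5 were lower in CL37 and in PDAT. The median log2 change was -0.34, -0.66 and -1.03, beside 0.00, 0.01 and 0.01 over all tested genes. FIE, which together with MSI1 is a subunit of the seed complex too, stood at 31.7 ± 2.39 CPM in CL37 at 7-8 days and changed by -1.21 ± 0.13 there (edgeR adjusted p = 7.55e-08). SWN, a methyltransferase related to MEA, was at 20.6, 26.6 and 36.6 CPM at 7-8 days in fae1, CL37 and PDAT and at 23.9, 15.7 and 18.9 at 11-12 days.

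Of 4 genes of DNA methylation and demethylation, 3 were lower in each of the 3 lines, at a median log2 change of -1.69, -2.55 and -2.34. MET1, the maintenance methyltransferase that silences FWA, changed by -1.51 ± 0.27 in fae1 (edgeR adjusted p = 0.000151) and -2.06 ± 0.27 in PDAT (2.2e-06). DME, the demethylase that activates the maternal alleles of MEA, FIS2 and FWA, was not called, at 0.80 ± 0.34 in fae1 (0.0543) and -0.73 ± 0.33 in PDAT (0.0686).

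Among 6 homeodomain relatives of FWA, 4 were lower and 1 higher with age in fae1, and 5 were lower in CL37 and in PDAT, with a median log2 change of -3.05, -3.71 and -4.28. HDG3 was at 7.67, 20.7 and 33.4 CPM at 7-8 days in fae1, CL37 and PDAT and at 0.310, 0.390 and 0.866 at 11-12 days. HDG2 was at 24.5, 36.8 and 62.0 CPM at 7-8 days, and was higher in PDAT than in fae1 by 1.34 ± 0.30 (edgeR adjusted p = 0.011). Of these 6 relatives, 4 were higher in PDAT than in fae1 at 7-8 days (HDG2, ATML1, HDG8 and HDG9), beside 4.77% of tested genes. These are calls of the main fit, without the non-unique percent as a covariate. HDG8 and HDG9 had group means of at most 0.596 and 0.734 CPM at the later stages, so that they were tested through groups in which they were high. Their calls are descriptions, and HDG8 was at 5.47 ± 6.24 CPM in PDAT at 7-8 days.

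Of 7 matched type I MADS box genes only PHE2 and AGL80 had enough reads to be tested, and the other 5 had 8 to 44 reads in all. AGL80, which acts in the central cell, rose by 1.28 ± 0.25 in fae1 (edgeR adjusted p = 0.000349), by 1.32 ± 0.25 in CL37 (0.000114) and by 0.94 ± 0.24 in PDAT (0.00243). PHE2 was lower in CL37 (0.0169) and in PDAT (0.0123) and not called in fae1 (0.368), so that 1 of the tested pair was higher in each line and 1 lower in CL37 and in PDAT. Of the 3 genes of the HAIKU list, SHB1, an upstream regulator of IKU2 and MINI3, had 10 reads, while IKU1 and the cytokinin oxidase CKX2 were tested: 0 were called in fae1 and 2 were lower in CL37 and in PDAT, with median changes of -0.66, -1.30 and -1.38 in the 3 lines. Outside CL37 and PDAT at 7-8 days, PHE2 and CKX2 had group means of at most 0.661 and 1.04 CPM. Both were tested through groups in which they were high, so their calls are descriptions.

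ALE1 acts in cuticle formation together with the embryo's receptor kinases. Of its 5 tested genes 1 was higher in each line and 1 was lower in CL37 and in PDAT. The gene that was higher is the receptor kinase gene GSO2, which rose by 1.22 ± 0.33 in fae1 (edgeR adjusted p = 0.00462), by 1.21 ± 0.33 in CL37 (0.00362) and by 1.36 ± 0.33 in PDAT (0.00152). SCRM2, the closest relative of ICE1, was lower in CL37, at -0.84 ± 0.13 (8.03e-06), and in PDAT, at -0.70 ± 0.13 (7.59e-05), and was at -0.19 ± 0.13 in fae1 (0.207). The list's median changes were 0.61, 0.09 and 0.29 in fae1, CL37 and PDAT. Of 8 further endosperm-expressed genes, 4 were tested, of which 2 were lower in each line, the sucrose transporter SUC5 and the microtubule-associated EDE1, and 1 was higher in fae1 and 2 in CL37. EPR1, a cell wall protein of the endosperm, rose by 1.11 ± 0.46 in fae1 (0.0487) and by 1.204 ± 0.46 in CL37 (0.0294) and was at 1.02 ± 0.46 in PDAT (0.0639). The list's median changes were -0.91, -0.80 and -1.29.

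The genes whose pattern over the 9 group means was most like a member's, by Pearson correlation of log2 CPM among genes at an average log2 CPM of at least 2, were AT5G13400 (0.995), AT5G25580 (0.994) and AT5G14940 (0.994) for RGE1. They were AT1G28710 (0.999), AT1G69860 (0.998) and AT5G12460 (0.997) for ALE1 and FBA1 (0.990), HDA05 (0.987) and AT5G18700 (0.987) for ICE1. For FIS2 they were AT3G56320 (0.990), AT2G15325 (0.985) and DMT2 (0.981), for FWA AT2G32840 (0.987), ANNAT7 (0.981) and LCR48 (0.977), and for PHE1 AT2G36724 (0.981), AGP24 (0.974) and AT2G30810 (0.971). Such likeness was common for some of the genes: of 14042 candidates, 573 correlated above 0.95 with RGE1, 909 with ALE1 and 171 with ICE1. Of 14043 candidates, 111 did with FIS2, 86 with FWA and 13 with PHE1. The groups differ in age and in line, and the part of either in these patterns was not tested. Over the same 9 means the 15 pairs of the 6 genes correlated at 0.705 (ICE1 and PHE1) to 0.961 (ICE1 and ALE1), with RGE1 and ALE1 at 0.959, RGE1 and FWA at 0.948 and RGE1 and ICE1 at 0.865.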

How the data were processed

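The authors deposited raw read counts per gene for every library and a table of FPKM with 1 pooled value per group, per the file headers. Per the submitters' processing notes the build was TAIR10 and the tools, with no roles given, included HTSeq 0.5.4p3, TopHat2 2.0.3, Cufflinks 2.0.1, Trimmomatic 0.22 and bcl2fastq 1.8.2. How strands were counted is not given in the sources used here. The 5 summary lines, 4.68% to 20.5% of each file, were left out. Counts were fitted with edgeR 4.0.16 (R 4.3.3, limma 3.58.1): TMM factors, edgeR's expression filter, a robust quasi-likelihood fit of 9 groups over 27 libraries, and 21 two-sided contrasts, checked on simulated data. DESeq2 1.42.0, other scalings, filters, covariates and left-out libraries were alternatives. Exon lengths and sequences came from RefSeq, TAIR10.1, whose loci overlap those of the authors' FPKM table for 32809 of 32810 nuclear genes. All 10 genes were described, tested or not, and 55 of 58 listed genes matched. The labels call the replicates biological without naming separate plantings, and p-values measure the spread between them. The genes and lists were chosen with earlier results of these data known.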

Additional observations from a re-analysis of the deposited data

Results flagged for a closer look

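The change of ICE1 from 7-8 to 11-12 days differed between lines by the test of the difference itself. It was -0.72 ± 0.17 on the log2 scale in CL37 against fae1 (edgeR adjusted p = 0.011), with group means of 301 and 152 CPM in CL37 and 255 and 211 CPM in fae1. In PDAT against fae1 it was -0.69 ± 0.17 (edgeR adjusted p = 0.021), with 303 and 155 CPM in PDAT. With A of fae1 at 7-8 and at 9-10 days left out the values were -0.74 ± 0.18 (adjusted p = 0.00772) and -0.71 ± 0.18 (0.00514). With only the groups of the comparison in the fit they were -0.73 (0.102) and -0.68 (0.0925). Over all 12 leave-one-out fits the first stayed called, and the second was lost without library A of PDAT at 11-12 days (-0.61, 0.0676). In the authors' deposited FPKM, pooled per group with no spread, ICE1 went from 150 to 103 in fae1 between these stages. It went from 171 to 90.6 in CL37 and from 167 to 83.9 in PDAT. By FPKM the fall in fae1 was steeper than by CPM, and the difference between lines was in the same direction but smaller. The developmental score at 11-12 days was 1.53 to 2.07 in fae1, 3.11 to 3.61 in CL37 and 2.23 to 3.31 in PDAT, and its part in the result was not tested.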

How the results depend on the processing

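Over all alternatives, 1873 of the single-gene folds kept their direction and side of the threshold, 86 lost a call, 17 gained a call and 0 reversed a call. Counts of genes called moved as follows, where the shares of all tested genes called in these other fits are not given here. With only the groups of the comparison fitted, 2 of 4 stayed called in fae1 at 11-12 against 7-8 days, 2 of 4 at 11-12 against 9-10 days, and 1 of 2 in PDAT at 11-12 against 9-10 days, while 0 of 1 did for the change with age in CL37 and in PDAT against fae1 and for PDAT against fae1 at 7-8 and 11-12 days. With each library's non-unique percent as a covariate, the counts were 2 in fae1 at 11-12 against 9-10 days, 3 in CL37 and 0 of 5 in PDAT at 9-10 against 7-8 days, and 0 for PDAT against fae1 at 7-8 and 11-12 days. With A of fae1 at 7-8 and at 9-10 days left out they were 2 in fae1 at 9-10 against 7-8 days, 2 at 11-12 against 9-10 days and 2 for PDAT against fae1 at 7-8 days. With C of fae1 and C of CL37 at 11-12 days left out they were 2 in fae1 at 11-12 against 9-10 days and 0 for CL37 and for PDAT against fae1 at 11-12 days. With no filter on low counts they were 3 in PDAT at 9-10 against 7-8 days and 0 for PDAT against fae1 at 11-12 days. DESeq2 called 2 for PDAT against fae1 at 11-12 days and 2 for the change with age in CL37 against fae1. The cause was not tested. A minimum of 5 reads put 2 genes above detection in all 9 groups.

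Leaving out 1 library at a time gave 2 to 4 genes in fae1 and 2 to 3 in PDAT at 11-12 against 9-10 days, 3 to 5 in CL37 and in PDAT at 9-10 against 7-8 days, 0 to 1 for CL37 and for PDAT against fae1 at 11-12 days, 1 to 2 for PDAT against fae1 at 7-8 days and 0 to 2 for the change with age in PDAT against fae1. Whether replicate letters pair the libraries is not given in the labels. Deviations of libraries with the same letter correlated at a median of 0.03 over 108 pairs, from -0.54 to 0.54. Those with different letters correlated at a median of -0.03 over 216 pairs, from -0.45 to 0.57. With such ranges, pairing in some groups cannot be told from these values. With the replicate block 41 of 126 folds were called, as without it, and 2 folds changed their call: ICE1 in fae1 at 11-12 against 7-8 days was gained (0.0482) and FWA in fae1 at 11-12 against 9-10 days was lost (edgeR adjusted p = 0.0583). The ALE1 to RGE1 ratio without each library was added after the data had been seen. Ranked by Spearman correlation, 0 to 3 of each gene's 3 most similar genes stayed among the first 3. Upper-quartile factors moved the median of all tested genes by -0.14 in CL37 from 7-8 to 11-12 days. Depth limits FIS2, FWA, PHE1 and the 4 genes not detected.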
